A study of Mus musculus with 12 samples.

Results

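The genes described here are 10 contractile and mural cell genes of smooth muscle and pericytes: Acta2, Actg2, Tagln, Cnn1, Smtn, Lmod1, Mylk, Des, Cspg4 and Myocd. They were taken by gene symbol from a table of 52550 genes counted in 12 mouse lungs, and all 10 were among the 15885 protein-coding genes that passed the filter on low counts and were tested. Each library came from the whole lung of a single C57Bl/6J pup on postnatal day 5, and 4 groups held 3 pups each. The pups were WT (Adm+/+) or Adm+/-, with 1 working adrenomedullin allele throughout the body, and were injected intraperitoneally with PBS or with LPS, the endotoxin of Escherichia coli O55:B5. Injections were daily, 3 in all, with 6 mg of LPS per kg each, and 6 h passed between the final injection and collection. The Adm+/- line had been backcrossed from 129/SvEv to C57BL/6J. In the order used throughout, the libraries are replicates 3, 4 and 5 of WT PBS, 9, 10 and 11 of WT LPS, 6, 7 and 8 of Adm+/- PBS, and 1, 2 and 12 of Adm+/- LPS.

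Smooth muscle cells line the airways and the larger vessels of the lung, and pericytes wrap its capillaries. Contraction begins when calcium-bound calmodulin activates myosin light chain kinase, which phosphorylates the regulatory light chain so that smooth muscle myosin can pull on actin filaments. Many genes of this apparatus are switched on by serum response factor (SRF) bound to CArG boxes in their regulatory DNA together with its coactivator myocardin. In the newborn lung, Acta2 is also carried by myofibroblasts at the tips of growing alveolar septa. Adrenomedullin is a peptide that relaxes vascular smooth muscle and acts on endothelial cells through the receptor Calcrl.

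Promoter sequence of 3 genes is shown because Acta2 is the most abundant of the group and Mylk and Smtn changed together. Each stretch holds the 250 bases before the RefSeq transcription start (build GRCm38.p6), written 5′ to 3′ on the strand of the gene. Capitals mark boxes with 5 or more A or T among the 6 central bases of a CArG box.
Acta2 at chr19:34255374-34255623, minus strand: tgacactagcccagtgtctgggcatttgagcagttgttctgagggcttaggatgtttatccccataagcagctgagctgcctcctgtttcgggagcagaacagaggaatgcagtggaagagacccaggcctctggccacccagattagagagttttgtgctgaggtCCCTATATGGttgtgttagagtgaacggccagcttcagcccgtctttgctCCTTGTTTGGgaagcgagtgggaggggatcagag
Mylk at chr16:34784700-34784949, plus strand: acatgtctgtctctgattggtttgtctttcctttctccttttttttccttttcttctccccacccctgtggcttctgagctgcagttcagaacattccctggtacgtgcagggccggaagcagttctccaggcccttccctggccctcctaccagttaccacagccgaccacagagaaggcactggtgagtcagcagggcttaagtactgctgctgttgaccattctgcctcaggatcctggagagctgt
Smtn at chr11:3539293-3539542, minus strand: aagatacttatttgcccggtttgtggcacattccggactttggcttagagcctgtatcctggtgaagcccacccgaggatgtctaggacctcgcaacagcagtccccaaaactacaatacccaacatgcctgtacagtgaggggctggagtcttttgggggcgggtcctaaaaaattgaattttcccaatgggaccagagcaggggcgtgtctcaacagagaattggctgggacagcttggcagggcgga
All 3 starts lie inside the Gencode span of their gene, and the Mylk and Smtn stretches lie wholly within it. A RefSeq window of 300 bases, 250 before and 50 after a start, was found for 7 of the 10 genes (Acta2, Cnn1, Smtn, Lmod1, Mylk, Des and Cspg4). The exact CArG box, which reads the same on both strands, was in 0 of these 7 windows and in 1.63% of 32851 windows of all genes. The looser form with a single exception was found in the Acta2 window only, at 84 and 34 bases before the start, and in 9.98% of all windows. These matches are descriptions of sequence, and their absence elsewhere says only that the letters are not in the window searched.

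Levels differed widely among the 10 genes. To compare genes, TMM-normalised CPM (each count scaled to a common library size of 1e+06) were divided by the exon length of each gene in kilobases, and values are means ± SD over the 3 WT PBS lungs. Acta2, which encodes smooth muscle alpha-actin, was highest at 204 ± 7.32 CPM per kilobase (SD, n = 3). Mylk, the gene of myosin light chain kinase, followed at 83.0 ± 13.2 CPM per kilobase, with no library as low as the highest of any gene below it. Des, which encodes the intermediate filament desmin, Actg2, which encodes enteric gamma-actin, and Smtn, which encodes the actin-binding protein smoothelin, stood at 47.6 ± 16.4, 42.03 ± 4.03 and 32.4 ± 6.81 CPM per kilobase. The ranges of these 3 overlapped. Cspg4, the pericyte proteoglycan NG2, and Cnn1, the actin-binding protein calponin, overlapped too, at 9.59 ± 2.38 and 9.09 ± 2.14 CPM per kilobase. Below them were Myocd (myocardin) at 4.65 ± 0.513, Lmod1 (leiomodin, which nucleates actin filaments) at 3.66 ± 0.488 and Tagln (transgelin, or SM22) at 2.75 ± 0.532 CPM per kilobase. The lowest Myocd lung (4.09) was just above the highest Lmod1 lung (4.07), and Lmod1 and Tagln overlapped. Over all 12 lungs the order was the same except that Actg2 passed Des and Cnn1 passed Cspg4. Mylk counts pool the short smooth muscle kinase, the long kinase that endothelial cells make and the small protein telokin, since the table is by gene.

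**Figure D1:**
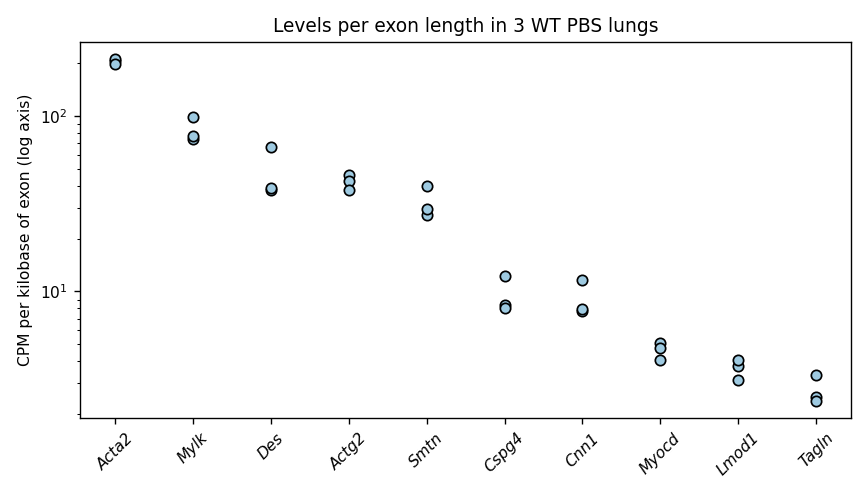
Levels of the 10 genes in the 3 WT PBS lungs, as CPM per kilobase of exon on a log axis, with 1 point per lung. Acta2 stands above all others at a mean of 204, and Tagln is lowest at 2.75.

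Positions are those of Gencode release M21 for mm10. Acta2 (ENSMUSG00000035783) lies on the minus strand at chr19:34241090-34255590. Actg2 lies at chr6:83512905-83536265, Mylk at chr16:34745210-35002420, Smtn at chr11:3517523-3540612, Myocd at chr11:65176561-65269989 and Des at chr1:75360329-75368579. Lmod1 lies at chr1:135324807-135368065, and chromosome 9 carries Tagln at chr9:45929619-45936058, Cnn1 at chr9:22099216-22109630 and Cspg4 at chr9:56865033-56899870. For Tagln, 67.9% of the exon bases are also exon bases of genes on the opposite strand, 1241 of them in the antisense gene Gm48529 and 108 in the protease gene Pcsk7. The counting option for strand is not given in the sources used here, so the share of Tagln reads that these genes took or gave is not known and its low level is uncertain. Opposite-strand exons covered 16.3% of Smtn, 6.9% of Mylk and 5.9% of Des and 0% of the other 6 genes. The coding sequences of Acta2 and Actg2 were 84.2% identical, and 7 of the 2146 stretches of 50 bases in Acta2 transcripts also occurred in another gene.

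Depth was 22382535 to 38062873 counts per library, with a median of 28494877, and the lowest count of any of the 10 genes in any library was 84, for Tagln. Lung markers were high in every library, from 7630 to 11600 CPM for Sftpc, the surfactant protein of type II cells, and from 398 to 650 CPM for the endothelial marker Pecam1. Adm itself was at 3.96 to 7.09 CPM in WT PBS and 2.87 to 4.58 CPM in Adm+/- PBS, and at 4.46 to 8.15 CPM in WT LPS and 3.74 to 6.28 CPM in Adm+/- LPS, so the genotypes overlapped and this gene does not check the labels of single libraries. WT PBS 5 and Adm+/- PBS 6 stood apart, with protein-coding shares of 77.8% and 80.1% of their counts, below the 84.3% to 87.6% seen otherwise. Markers of other tissues were high in the WT LPS libraries. Summed over 20 skeletal muscle markers, they reached 1036 to 2588 CPM against 27.9 to 72.4 CPM in the other 9 libraries, and 17 of the 18 tested rose in WT LPS. A list of 18 squamous epithelium markers summed to 3573, 38.96 and 1830 CPM in WT LPS 9, 10 and 11 and to at most 53.8 CPM elsewhere. Des is also a skeletal muscle gene, so these values stand beside its results below. In whole lungs, fewer cells of a type and less RNA per cell cannot be told apart.

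LPS lowered Mylk and Smtn in both genotypes and Lmod1 in the Adm+/- mice. A gene was called changed at an adjusted p below 0.05 (edgeR, Benjamini-Hochberg) with a log2 fold change beyond 0.5 in either direction. In WT mice 0 of the 10 genes rose and 2 fell, where 17.6% of all tested genes changed and 7.09% fell. Among Adm+/- mice 0 rose and 3 fell, where 25.0% of all tested genes changed and 12.2% fell. The treat test of limma-voom, which asks for a change beyond 0.5 itself, called 0 of the 10 genes in either genotype, where it called 3.41% of all tested genes in WT and 7.17% in Adm+/- mice. Every call named here was thus lost under it, at adjusted p-values of 0.812 (Mylk) and 1 (Smtn) in WT and 0.547 (Mylk), 0.643 (Smtn) and 0.935 (Lmod1) in Adm+/- mice. The median log2 fold change of the 10 genes was -0.21 in WT and -0.40 in Adm+/- mice, against 0.01 and -0.01 over all tested genes. All 10 fitted changes were below 0 in Adm+/- mice and 7 of 10 in WT mice, with Actg2, Cnn1 and Des above 0 there. The LPS and PBS lungs did not overlap for 3 genes in WT mice, where 36.2% of tested genes did not overlap, and for 7 genes in Adm+/- mice, where 53.7% did not. In WT mice the non-overlap of the 10 genes was thus near the background. So were the shares called, 20% in WT and 30% in Adm+/- mice, against 17.6% and 25.0% of all tested genes. No test was run on the 10 genes as a set.

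**Figure D2:**
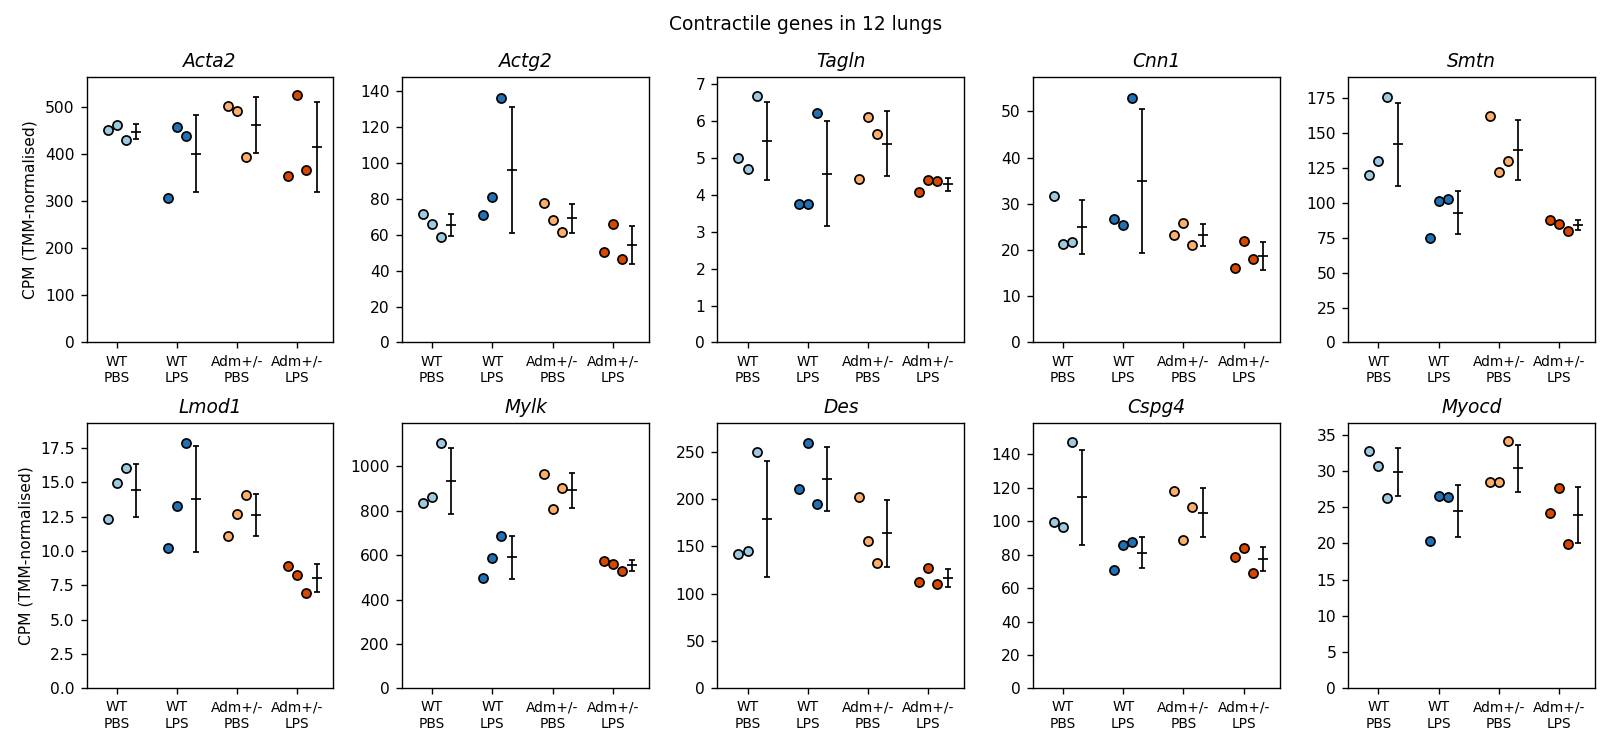
CPM of the 10 genes in each of the 12 lungs, with 1 point per lung and the group mean ± SD beside the points, on linear axes that start at 0. Mylk and Smtn are lower in every LPS lung than in any PBS lung of either genotype, whereas Actg2, Cnn1 and Des run higher in the WT LPS lungs than in the Adm+/- LPS lungs.

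Mylk, the kinase that starts contraction, was called lower after LPS in both genotypes. It stood at 837, 862 and 1106 CPM in WT PBS and at 495, 587 and 687 CPM in WT LPS. In the Adm+/- mice it was at 966, 809 and 903 CPM after PBS and at 573, 561 and 527 CPM after LPS. Every LPS lung was below every PBS lung, whichever the genotype. The log2 fold change was -0.66 (SE 0.141, adjusted p = 0.00748) in WT mice and -0.69 (SE 0.141, adjusted p = 0.00366) in Adm+/- mice, or 0.631 and 0.620 times the PBS level. In WT mice the call held when any single library was left out, at log2 fold changes from -0.79 to -0.53. It was lost when WT LPS 9, WT PBS 5 and Adm+/- PBS 6 were left out together, at -0.42, and in a fit of the 6 WT libraries alone, at an adjusted p of 0.0598. Endothelial cells also use Mylk, and 10 endothelial markers summed to 3981 to 4187 CPM in WT PBS and 3365 to 3401 CPM in WT LPS, and to 4137 to 4296 CPM in Adm+/- PBS and 3479 to 3841 CPM in Adm+/- LPS. Their part in the fall of Mylk was not tested.

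Among the genes of actin-binding proteins, Smtn fell in both genotypes, Lmod1 in Adm+/- mice, and Cnn1 and Tagln passed the threshold in neither. Smtn, a marker of contractile smooth muscle, was at 120.0, 130.0 and 175.9 CPM in WT PBS and at 75.0, 101 and 103 CPM in WT LPS. In Adm+/- mice its values were 162, 122 and 130.1 CPM after PBS and 87.6, 84.9 and 80.0 CPM after LPS. As with Mylk, no LPS lung reached the lowest PBS lung. The log2 fold change of Smtn was -0.61 (SE 0.169, adjusted p = 0.0256) in WT and -0.71 (SE 0.169, adjusted p = 0.00829) in Adm+/- mice. The WT call rested on single libraries: it was lost without WT PBS 5 (-0.43, adjusted p = 0.0677) or without WT LPS 9 (-0.48, adjusted p = 0.112), while the call in Adm+/- mice held in all 12 such fits.

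Lmod1 showed its lowest levels in the Adm+/- LPS lungs. This actin nucleator was at 12.3, 14.95 and 16.1 CPM in WT PBS and spread from 10.2 over 13.3 to 17.8 CPM in WT LPS, around the PBS values. In Adm+/- mice it went from 11.1, 12.7 and 14.1 CPM to 8.94, 8.25 and 6.91 CPM, without overlap. The log2 fold change was -0.65 (SE 0.204, adjusted p = 0.0313) in Adm+/- mice and -0.07 (SE 0.202, adjusted p = 0.831) in WT mice. The Adm+/- call was lost in 4 of 12 fits that left out 1 library, those without Adm+/- PBS 7 or 8 and those without Adm+/- LPS 2 or 12, with adjusted p-values of 0.0685, 0.100, 0.0700 and 0.116.

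Cnn1, whose product inhibits the myosin motor, was at 31.6, 21.3 and 21.7 CPM in WT PBS and at 26.6, 25.3 and 52.8 CPM in WT LPS. A single lung, WT LPS 11, lay above all others. In Adm+/- mice Cnn1 was at 23.2, 25.8 and 21.03 CPM after PBS and 16.1, 22.0 and 18.1 CPM after LPS. The log2 fold changes were 0.49 (SE 0.267, adjusted p = 0.208) in WT and -0.32 (SE 0.268, adjusted p = 0.398) in Adm+/- mice. Without WT LPS 11 the WT value was 0.06. Tagln, an actin cross-linker, was between 3.74 and 6.67 CPM in all 12 lungs, with log2 fold changes of -0.25 (SE 0.229, adjusted p = 0.444) and -0.34 (SE 0.228, adjusted p = 0.291), the former turning to 0.03 without the 3 libraries named above.

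The smooth muscle actins did not pass the threshold in either genotype. Acta2 was at 451, 463 and 431 CPM in WT PBS and at 307, 458 and 439.9 CPM in WT LPS. Its Adm+/- values were 502, 492 and 394 CPM after PBS and 354, 526 and 366 CPM after LPS. All groups overlapped for Acta2, and both log2 fold changes were -0.16 (SE 0.181, adjusted p = 0.548 in WT and 0.551 in Adm+/- mice). Single libraries moved these Acta2 values, from -0.27 (without WT LPS 10) to -0.0037 (without WT LPS 9) in WT and from -0.36 (without Adm+/- LPS 2) to -0.05 (without Adm+/- LPS 1) in Adm+/- mice. Actg2, the actin of enteric and other visceral smooth muscle, was at 71.5, 66.0 and 58.9 CPM in WT PBS and at 70.9, 80.9 and 136.0 CPM in WT LPS. After PBS the Adm+/- lungs held 77.8, 67.9 and 61.6 CPM of Actg2, and after LPS 50.3, 66.2 and 46.5 CPM. WT LPS 11 was again the highest lung. The log2 fold change was 0.55 (SE 0.222, adjusted p = 0.0962) in WT and -0.35 (SE 0.222, adjusted p = 0.263) in Adm+/- mice. Without WT LPS 11 the WT value of Actg2 was 0.21 (adjusted p = 0.401). The skeletal actin Acta1, whose coding sequence was 84.9% identical to that of Actg2, was at 184.5 to 593.6 CPM in WT LPS and at 0.210 to 10.3 CPM in the other 9 lungs, and Actb, Actg1 and the cardiac actin Actc1 were not called in either genotype.

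Des, the intermediate filament that ties contractile units together in all muscle types, was at 141, 145 and 249.9 CPM in WT PBS and 210.4, 259 and 194 CPM in WT LPS. In Adm+/- mice it was at 202, 156 and 132 CPM after PBS and at 113, 128 and 110.0 CPM after LPS. All 3 Adm+/- LPS lungs were below every other lung. The log2 fold change was 0.31 (SE 0.221, adjusted p = 0.334) in WT and -0.49 (SE 0.222, adjusted p = 0.119) in Adm+/- mice. Without WT PBS 5 the WT change of Des was 0.62 at an adjusted p of 0.0287, a rise. The part of the skeletal muscle markers of the WT LPS lungs in the Des values was not tested.

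Cspg4 and Myocd had log2 fold changes below 0 in both genotypes and passed the threshold in neither. Cspg4, whose protein NG2 marks pericytes and oligodendrocyte precursors, was at 99.8, 96.3 and 147 CPM in WT PBS, 70.5, 85.6 and 87.5 CPM in WT LPS, 118, 88.9 and 109 CPM in Adm+/- PBS, and 78.8, 83.7 and 69.3 CPM in Adm+/- LPS. The LPS lungs were below the PBS lungs in both genotypes. Its log2 fold changes were -0.49 (SE 0.171, adjusted p = 0.0596) and -0.44 (SE 0.171, adjusted p = 0.0693). Without WT PBS 5, the highest lung and one that stood apart, the WT change was -0.275 (adjusted p = 0.181), and without all 3 libraries named above it was -0.18 (adjusted p = 0.328). Leaving out WT PBS 3 or 4 instead made the WT change a call (adjusted p = 0.0462 and 0.0419), as leaving out Adm+/- PBS 7 did for Adm+/- mice (adjusted p = 0.0494). Myocd, the coactivator that drives the smooth muscle programme, was at 26.3 to 32.7 CPM in WT PBS, 20.3 to 26.6 CPM in WT LPS, 28.5 to 34.1 CPM in Adm+/- PBS and 19.9 to 27.6 CPM in Adm+/- LPS. The Adm+/- groups did not overlap for Myocd and the WT groups did. The log2 fold changes of Myocd were -0.29 (SE 0.156, adjusted p = 0.197) and -0.35 (SE 0.156, adjusted p = 0.114).

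**Figure D3:**
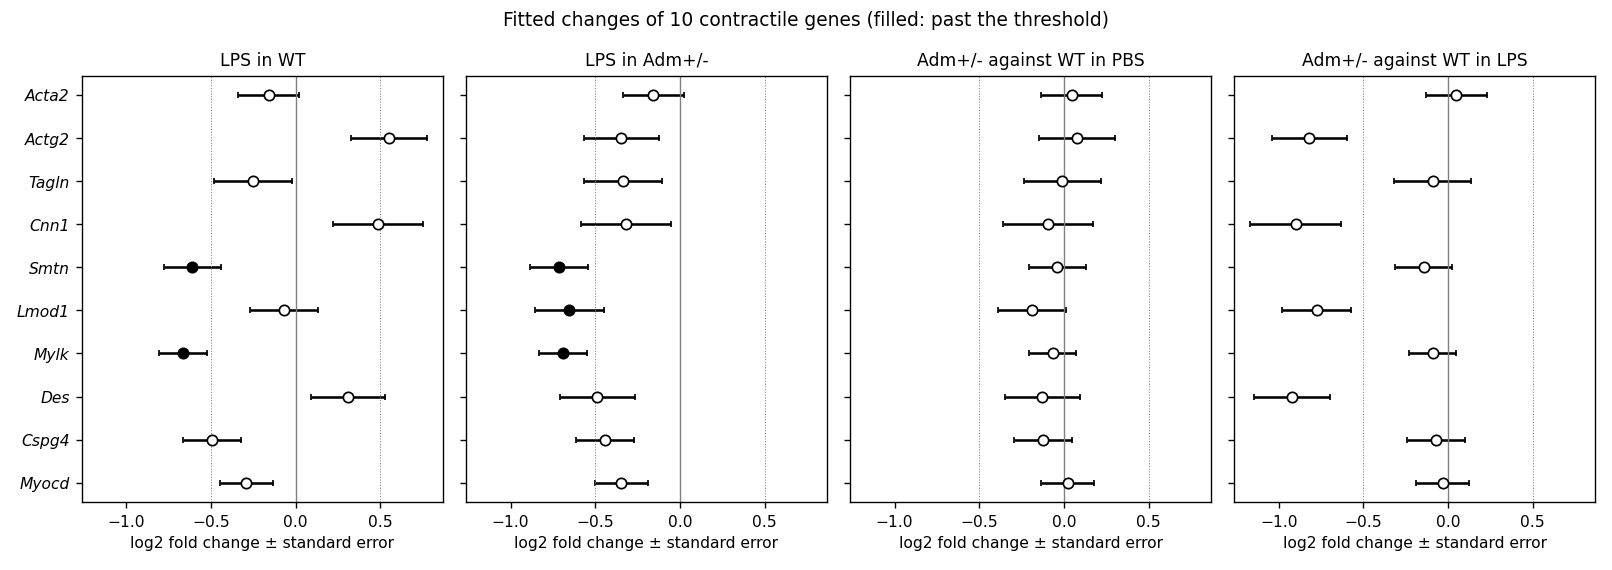
Fitted log2 fold changes of the 10 genes with their standard errors for LPS against PBS in each genotype and for Adm+/- against WT mice in each treatment; filled points passed the threshold and dotted lines mark 0.5 in either direction. Mylk and Smtn are filled in both genotypes and Lmod1 in Adm+/- mice, and in LPS the values of Actg2, Cnn1, Lmod1 and Des lie between -0.92 and -0.78.

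No gene passed the threshold between genotypes, but for 4 of the 10 all Adm+/- LPS lungs were below all WT LPS lungs, while the other 6 overlapped. In PBS, edgeR called 0 of the 10 genes and 0% of all tested genes, and 0 of the 10 had an unadjusted p under 0.05. The PBS log2 differences ran from -0.19 (Lmod1) to 0.08 (Actg2), and 0 of the 10 genes did not overlap between genotypes, against 4.99% of tested genes. In LPS, edgeR called 0 of the 10 and 2.05% of all tested genes. There, 4 of the 10 genes had an unadjusted p under 0.05, as had 14.3% of all tested genes, and the same 4 did not overlap between genotypes, where 24.6% of tested genes did not. They were Des at -0.92 (SE 0.223, adjusted p = 0.0589), Lmod1 at -0.78 (SE 0.204, adjusted p = 0.0761), Actg2 at -0.82 (SE 0.222, adjusted p = 0.0843) and Cnn1 at -0.90 (SE 0.268, adjusted p = 0.115). DESeq2 called all 4, with adjusted p-values of 0.00454 for Des, 0.0120 for Lmod1, 0.0161 for Actg2 and 0.0297 for Cnn1, but it called 5.06% of all tested genes here. Limma-voom called 0 of the 10 and 1.79% of all tested genes. In edgeR, Des was called without WT PBS 5 (adjusted p = 0.00954), and Actg2 and Lmod1 were called without WT LPS 9 (adjusted p = 0.0411 and 0.0281). Without WT LPS 11, by contrast, the differences of Actg2, Cnn1 and Lmod1 shrank to -0.48, -0.47 and -0.54 (adjusted p = 0.323, 0.476 and 0.321), while that of Des was -1.01 (adjusted p = 0.115). The share of all tested genes called was 3.56% without WT PBS 5, 2.69% without WT LPS 9 and 1.03% without WT LPS 11. The remaining 6 genes had log2 differences from -0.14 to 0.05 with adjusted p-values from 0.828 to 0.976. Des is also a skeletal muscle gene. In LPS, 16 of the 18 tested skeletal muscle markers were called, all lower in Adm+/- mice, with a median log2 difference of -5.31 over the 18. Their part in the Des difference was not tested.

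The direct test of whether the LPS response differed between genotypes called 0 of the 10 genes in edgeR, DESeq2 and limma-voom, where edgeR called 0.145% of all tested genes. The difference in log2 fold change, Adm+/- minus WT, was -0.90 (SE 0.313, adjusted p = 0.467) for Actg2, -0.80 (SE 0.313, adjusted p = 0.532) for Des, -0.80 (SE 0.378, adjusted p = 0.651) for Cnn1 and -0.59 (SE 0.287, adjusted p = 0.677) for Lmod1. Without WT LPS 11 it was -0.555 for Actg2, -0.376 for Cnn1, -0.351 for Lmod1 and -0.878 for Des. An unadjusted p under 0.05 was reached by 2 of the 10 and by 7.85% of all tested genes. For the other 6 genes the difference lay between -0.10 and 0.05. So the passing of Lmod1 in Adm+/- mice only was not shown to be a difference between genotypes.

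Measured against Acta2 in the same library, a ratio that does not depend on library scaling, Actg2 separated the WT LPS lungs from all others. There were 23.1, 17.7 and 30.9 Actg2 counts per 100 Acta2 counts in WT LPS, and 12.6 to 15.8 in the other 9 lungs. Cnn1 was at 8.67, 5.53 and 12.0 counts per 100 Acta2 counts in WT LPS and at 4.17 to 7.01 elsewhere, so WT LPS 10 lay within the range of the others. Des was at 68.5, 56.6 and 44.2 per 100 in WT LPS and at 24.3 to 40.3 in the others except WT PBS 5, which held 58.0. Smtn was at 22.1 to 24.4 per 100 in WT LPS against 26.6 to 40.8 in WT PBS. Among Adm+/- lungs the Actg2 ratio was 13.8 to 15.6 after PBS and 12.6 to 14.2 after LPS, with overlap. The skeletal muscle sum was 2367, 2588 and 1036 CPM in WT LPS 9, 10 and 11. Among these 3 lungs Actg2 and Cnn1 were highest in replicate 11, where that sum was lowest, whereas Des, at 210.4, 259 and 194.3 CPM, ran in the order of the sum. The part of the skeletal and squamous markers in these ratios was not tested.

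**Figure D4:**
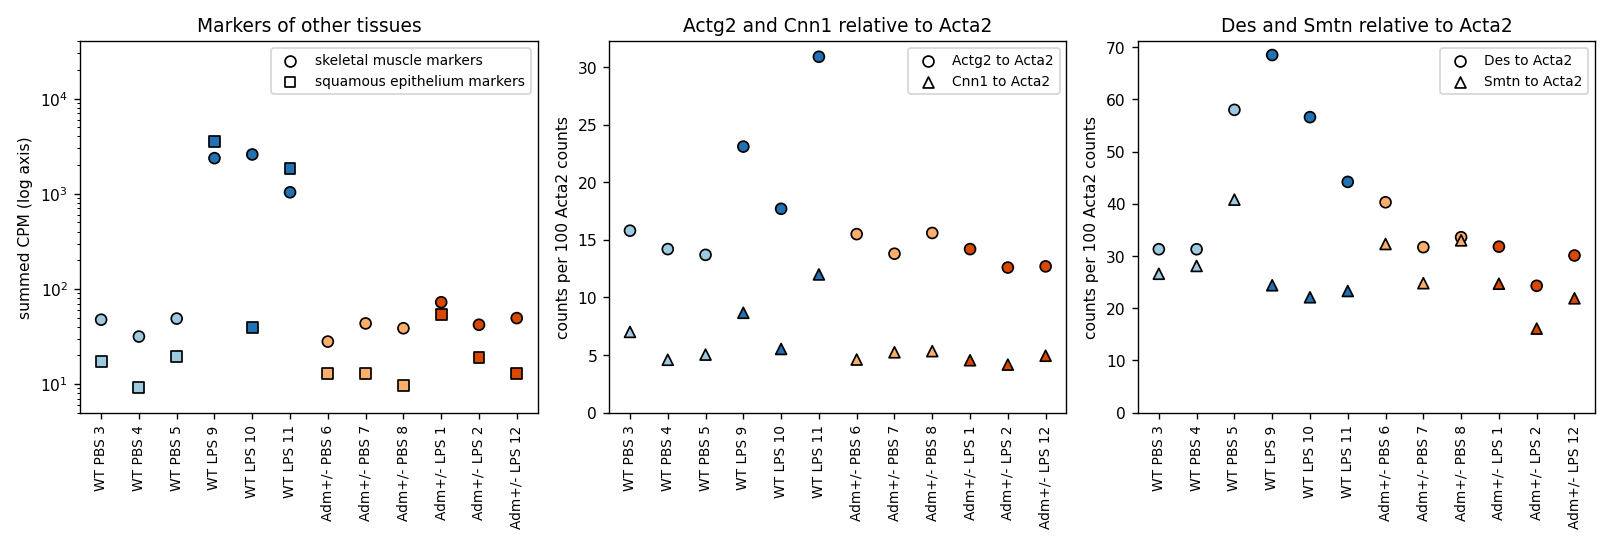
Left, summed CPM of 20 skeletal muscle and 18 squamous epithelium markers in each lung on a log axis. Middle and right, counts of Actg2, Cnn1, Des and Smtn per 100 counts of Acta2 in each lung on linear axes, where Actg2 reaches 17.7 to 30.9 in WT LPS and at most 15.8 elsewhere.

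Of 34 other genes of the contractile apparatus and its anchors, 0 rose and 3 fell in WT mice after LPS, with a median log2 fold change of -0.20. In Adm+/- mice 2 rose and 6 fell, with a median of -0.22. The shares called, 8.82% and 23.5%, were below those of all tested genes (17.6% and 25.0%). The 3 most abundant were Csrp1, Flna and Vim, which encode an actin-bundling LIM protein, filamin A and vimentin, and their log2 fold changes ran from -0.51 to -0.10 with none called. Myh11, the smooth muscle myosin heavy chain, was at -0.16 (SE 0.216, adjusted p = 0.608) in WT and -0.50 (SE 0.217, adjusted p = 0.0998) in Adm+/- mice. Pdlim3, a Z-disc LIM protein, and Tpm2, beta-tropomyosin, had the smallest p in the test of the difference between genotypes. Pdlim3 fell in both, with log2 fold changes of -0.84 in WT and -1.87 in Adm+/- mice (adjusted p = 0.00314 and 4.84e-05).

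Tpm2 gave the same order of groups as Des. It was at 80.0, 84.5 and 168 CPM in WT PBS, at 167, 210 and 169 CPM in WT LPS, at 133, 94.7 and 73.1 CPM in Adm+/- PBS and at 46.9, 67.1 and 55.2 CPM in Adm+/- LPS. The Adm+/- LPS lungs were below all others. After LPS Tpm2 was lower in Adm+/- than in WT mice by a log2 difference of -1.69 (SE 0.294, adjusted p = 0.0148) and Pdlim3 by -0.76 (SE 0.151, adjusted p = 0.0272), the 2 genes of the 34 that were called there. The share called was 5.88%, against 2.05% of all tested genes. Single libraries ended these calls. Tpm2 was not called without Adm+/- LPS 1, 2 or 12 (adjusted p = 0.0896, 0.0531 and 0.0862), nor Pdlim3 without Adm+/- LPS 1 or 12, WT LPS 11 or Adm+/- PBS 7 (adjusted p = 0.132, 0.133 and 0.113, and just past the threshold in the last). The treat test called neither, and Pdlim3 was also lost in the 6 LPS libraries alone (adjusted p = 0.0760). Tpm2 is also a skeletal muscle gene. The skeletal muscle sum was 2367, 2588 and 1036 CPM in WT LPS 9, 10 and 11. It was 48.7 CPM in WT PBS 5, where Tpm2 was at 168 CPM. The part of the skeletal muscle markers in the Tpm2 values was not tested. The difference between the LPS responses missed the threshold for both, at -1.55 (adjusted p = 0.293) for Tpm2 and -1.03 (adjusted p = 0.129) for Pdlim3. Of the other called genes, named after their values were seen, Synm, which encodes the desmin partner synemin, fell by 1.66 and Jph2, which encodes a junctophilin, by 1.77 on the log2 scale in Adm+/- mice (adjusted p = 0.00237 and 0.00170). Hspb6, a small heat shock protein gene of smooth muscle, and Rock2, the kinase that keeps myosin phosphorylated, were the 2 that rose, by 0.64 and 0.69 (adjusted p = 0.0222 and 0.00803). The Adm+/- calls of Synm, Jph2 and Rock2 held in all 12 fits that left out 1 library, whereas Hspb6 was lost without Adm+/- PBS 7 or 8 or Adm+/- LPS 1 or 2 (adjusted p = 0.0773, 0.0612, 0.0640 and 0.0781). Jph2 was also called in WT mice, at -1.12, a call that held in 10 of 12 such fits. Synm was at -0.53 (adjusted p = 0.224) in WT mice.

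Among 13 partners and regulators of SRF and myocardin, 1 fell in each genotype and 0 rose. The share called, 7.69% in each, was below the 17.6% and 25.0% of all tested genes. Srf itself fell in WT mice (-0.76, SE 0.240, adjusted p = 0.0433) and was at -0.67 (SE 0.240, adjusted p = 0.0531) in Adm+/- mice. Its CPM were 88.0, 81.0 and 173 in WT PBS, 63.0, 67.3 and 71.4 in WT LPS, 119, 89.8 and 89.7 in Adm+/- PBS, and 60.6, 62.3 and 64.7 in Adm+/- LPS. The LPS lungs lay below the PBS lungs in both genotypes, and WT PBS 5, which stood apart in its protein-coding share, was the highest. The WT call of Srf held in only 3 of 12 fits that left out 1 library, those without WT PBS 3 or 4 or Adm+/- PBS 6. Without WT PBS 5 the change was -0.33 (adjusted p = 0.0854), inside the fold limit, and in the other 8 fits that lost the call it was -0.81 to -0.72 with adjusted p-values of 0.0541 to 0.145. Mef2c, a muscle and endothelial transcription factor, fell in Adm+/- mice (-1.02, SE 0.224, adjusted p = 0.00547) and was at -0.05 (SE 0.222, adjusted p = 0.892) in WT mice, a difference of -0.97 that missed the threshold (adjusted p = 0.421). Foxf1, a mesenchymal and endothelial factor of the lung, was at 0.08 and 0.17 and was called in neither, and neither was Klf4, a repressor of the contractile programme, at 0.41 and -0.11.

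Of 16 pericyte markers, 3 fell in WT mice (Notch3, Cox4i2 and Gucy1a3), and in Adm+/- mice 2 fell (Gucy1a3 and Gucy1b3) and 1 rose (Lamc3). The shares called were 18.8% in both, near the 17.6% of all tested genes in WT mice and below the 25.0% in Adm+/- mice. Several of these calls rested on single libraries. Notch3, a mural cell receptor, was at -0.72 with all libraries and at -0.37 (adjusted p = 0.124) without WT PBS 5, and its call held in 4 of 12 fits that left out 1 library. Cox4i2, a subunit of cytochrome c oxidase, stood at the fold limit, and its call was lost without WT PBS 5 (-0.46) or WT LPS 11 (-0.49). Gucy1a3 and Gucy1b3 came to -0.498 and -0.493 in Adm+/- mice without Adm+/- LPS 12, inside the fold limit, while Lamc3 held in all 12 fits. The fitted change was below 0 for 12 of the 16 in WT and 10 of the 16 in Adm+/- mice, with medians of -0.31 and -0.19. It was above 0 for 4 and 6 of them, among them Rgs5 at 0.34 and 0.15, called in neither. Summed over the 16 genes the level was 3237 to 3586 CPM in WT PBS and 2594 to 2896 CPM in WT LPS, and 3654 to 3735 CPM in Adm+/- PBS and 3015 to 3385 CPM in Adm+/- LPS. The LPS lungs were below the PBS lungs in each genotype. Gucy1a3, a subunit of the soluble guanylate cyclase that relaxes mural cells in response to nitric oxide, fell by 0.59 and 0.56 on the log2 scale (adjusted p = 0.00143 and 0.000971). Pdgfrb, the receptor by which pericytes are recruited, was at -0.40 (adjusted p = 0.0430) in WT and -0.10 (adjusted p = 0.599) in Adm+/- mice, inside the fold limit. The abundant markers Mcam, an adhesion molecule, and Postn, a matrix protein, were not called in either genotype. Between genotypes 0 of the 16 were called in either treatment, where 0% of all tested genes were called in PBS and 2.05% in LPS.

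**Figure D5:**
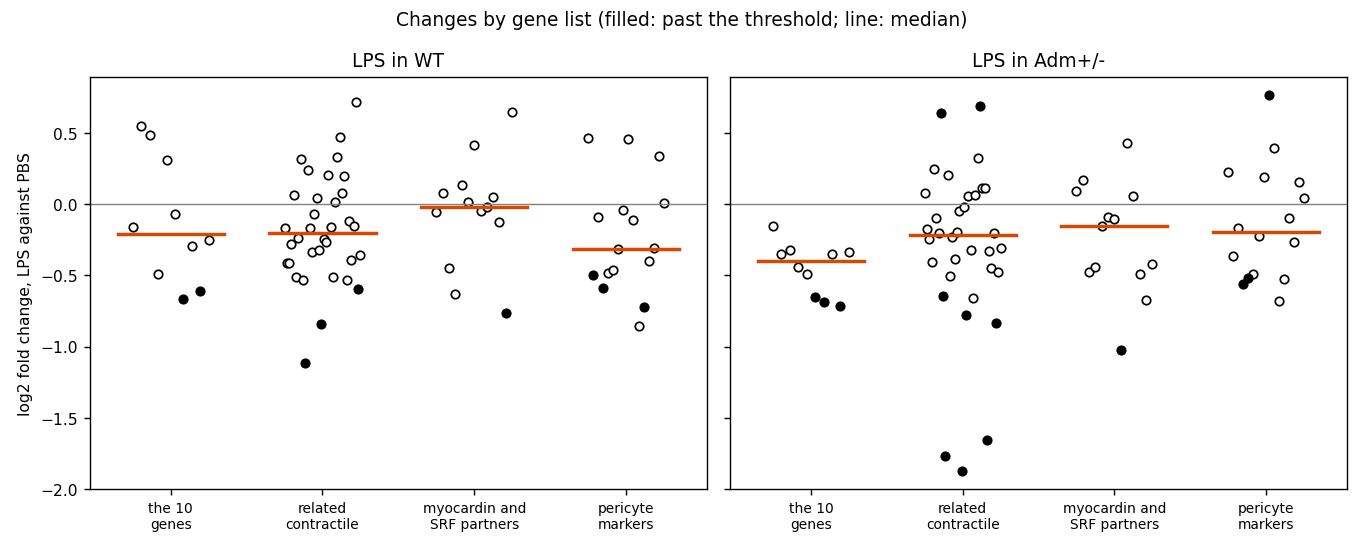
Log2 fold changes after LPS in WT (left) and Adm+/- mice (right) for the 10 genes, 34 related contractile genes, 13 partners of myocardin and SRF and 16 pericyte markers, 1 point per gene, filled where called, with the median as a line. The median of the 10 genes is -0.21 in WT and -0.40 in Adm+/- mice.

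The members resembled each other in subsets. As a measure of likeness, the log2 CPM of each gene was centred over the 12 lungs and the root mean square difference between profiles was taken. Mylk and Smtn were the closest of 45 pairs at 0.0762, followed by Smtn with Cspg4 at 0.132 and Mylk with Cspg4 at 0.139. Actg2 and Cnn1 differed by 0.159 and Acta2 and Myocd by 0.193. The farthest pair was Cnn1 and Smtn at 0.552. The protein-coding genes closest to the average profile of the 10 genes over the 12 lungs were St3gal5 at 0.0887, Tesk2 at 0.0912, Fam110a at 0.0924, Zfp503 at 0.0956 and Ehd4 at 0.0999. All of these lungs share their library scaling, and these distances carry no test.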

How the data were processed

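Per the labels and the study's methods, rRNA-depleted RNA was sequenced from directional libraries, and the authors used Trim Galore for trimming, HISAT2 for alignment to mm10 and featureCounts with a Gencode annotation for counting. The Gencode release and the strand option are not given in the sources used here. The deposited table holds raw whole-number counts per gene, not normalized, in 12 columns, all of which were used. Replicates were separate mice, and none of the 12 within-group pairs of libraries agreed within sampling noise.

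Counts were analysed in R 4.3.3 with edgeR 4.0.16: protein-coding genes passing filterByExpr (15885 of 21950), TMM scaling, and a quasi-likelihood F-test with 1 coefficient per group over all 12 libraries (8 residual degrees of freedom). The 5 comparisons were LPS in each genotype, their difference, and genotype in each treatment. P-values were Benjamini-Hochberg adjusted over all tested genes. Standard errors were derived as the absolute log2 fold change divided by the square root of the F statistic. Calls needed an adjusted p below 0.05 and a log2 change beyond 0.5 in either direction. CPM are TMM-normalised counts per 1e+06. Total counts of 22382535 to 38062873 gave 84 to 181 counts for Tagln and 194 to 448 for Lmod1, the 2 members with the largest counting error. Reads carry no molecular identifiers, so precision from counts covers counting error only. Alternatives used DESeq2 1.42.0, limma 3.58.1 (voom), RLE scaling, other filters and libraries left out. Scripts were tested on simulated data. Lengths, positions and overlaps came from Gencode M21, in which 99.7% of the genes were found, and promoters from RefSeq (GRCm38.p6).

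The members and lists were chosen with earlier results of these data known. Named were all members, the related actins, Adm, and from a list the 3 highest genes per exon length and the 2 with the smallest p for the difference between responses. Other named genes of the lists stood outside this rule, mainly because they were called, and their values had been seen. Likeness was ranked over the tested genes, and 5 were named.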

Additional observations from a re-analysis of the deposited data

How the results depend on the processing

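With libraries left out or the tool changed, Mylk and Smtn in Adm+/- mice remained called in all alternatives but limma-voom's treat, which tests against a log2 fold change of 0.5. Counts of genes called moved by over 1.5 times as follows. With treat, 0 of the 10 genes were called in WT or Adm+/- mice, 0 and 3 related contractile genes in WT and Adm+/- mice and 0 between genotypes in LPS, and 0 pericyte markers in either. In fits of only the 6 libraries compared, 0 of the 10 genes were called in WT mice and 1 (Des) between genotypes in LPS, 1 related contractile gene in each of these, and 1 and 5 pericyte markers in WT and Adm+/- mice, where 7.39% of all tested genes were called in WT mice, 29.2% in Adm+/- mice and 1.56% between genotypes in LPS. DESeq2 called 4 of the 10 genes between genotypes in LPS and 2 related contractile genes for the difference between responses, where it called 5.06% and 1.06% of all tested genes against 2.05% and 0.145% in edgeR. On adjusted p alone, 6 related contractile genes and 6 pericyte markers were called in WT and 5 pericyte markers in Adm+/- mice, where 21.3% and 30.9% of all tested genes were called, and limma-voom called 1 pericyte marker in WT mice.

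Without WT PBS 5 and Adm+/- PBS 6, 1 of the 10 genes (Des) was called between genotypes in LPS and 1 related contractile gene for the difference, where 3.40% and 0.118% of all tested genes were called. Without these and WT LPS 9, a choice made after the values were seen, 1 of the 10 genes was called in WT mice (Des, a rise) and 3 between genotypes in LPS (Actg2, Des and Lmod1), with 6 related contractile genes and 1 pericyte marker between genotypes in LPS, 1 related contractile gene for the difference and 1 pericyte marker in WT mice. The shares of all tested genes called were then 10.4% in WT mice, 6.26% between genotypes in LPS and 0.319% for the difference. Leaving out 1 library at a time gave 1 to 3 of the 10 genes in WT mice (1 without WT LPS 9) and 0 to 2 between genotypes in LPS (1 without WT PBS 5, 2 without WT LPS 9). The number of all tested genes called moved as well in these fits, from 1443 (without WT LPS 9) to 3074 (without WT PBS 3) in WT mice, against 2791 with all libraries, and from 81 (without Adm+/- LPS 1) to 573 (without WT PBS 5) between genotypes in LPS, against 325. For related contractile genes it gave 1 to 5 in WT mice (1 without WT LPS 9, 5 without WT LPS 10 or 11), 5 to 9 in Adm+/- mice (5 without Adm+/- LPS 1), 0 to 1 for the difference (1 without WT PBS 5 or Adm+/- LPS 2) and 0 to 3 between genotypes in LPS (0 without Adm+/- LPS 1 or 12, 1 without WT LPS 11, Adm+/- PBS 7 or Adm+/- LPS 2). For pericyte markers it gave 1 to 7 in WT mice (1 without WT LPS 11, 7 without WT PBS 3) and 1 to 5 in Adm+/- mice (1 without Adm+/- LPS 12, 5 without WT PBS 5). Over all tested genes these fits called 3033 (without Adm+/- LPS 12) to 4503 (without WT PBS 5) in Adm+/- mice, against 3968 with all libraries. For the difference they called 5 (without Adm+/- PBS 7) to 65 (without WT LPS 10), against 23.

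Changes of sign concerned log2 values between -0.25 and 0.08 that were not called. In PBS, the genotype difference turned without the 2 and without the 3 libraries for Acta2 (-0.0397 and -0.0499), Actg2 (-0.0813 and -0.0905), Tagln (0.28 and 0.27), Mylk (0.0153 and 0.00642), Des (0.0158 and 0.00585), Smtn (0.0163 and 0.00703), Cspg4 (0.0148 and 0.00662), Myocd (-0.0156 and -0.0239), and for Tagln also under limma-voom and its treat (0.0233). Without the 2 and the 3 libraries, the change of Lmod1 in WT mice was 0.0122 and 0.19 and the Cspg4 difference between responses -0.0779 and -0.174. Without the 3 libraries, Tagln in WT mice was 0.0332, and Acta2 was -0.115 between genotypes in LPS and -0.0655 for the difference, which was -0.00338 without a filter. With 1 library left out, values that crossed 0 ranged, for LPS in WT mice Lmod1 -0.301 to 0.104, and for the difference between the LPS responses Acta2 -0.197 to 0.109, Tagln -0.239 to 0.205, Mylk -0.154 to 0.102, Smtn -0.277 to 0.0233, Cspg4 -0.163 to 0.16, Myocd -0.166 to 0.0616, and for genotype in PBS Acta2 -0.0159 to 0.15, Actg2 -0.0154 to 0.154, Tagln -0.11 to 0.156, Cnn1 -0.196 to 0.118, Mylk -0.141 to 0.0711, Des -0.305 to 0.191, Smtn -0.169 to 0.143, Cspg4 -0.23 to 0.0995, Myocd -0.0694 to 0.0926, and for genotype in LPS Acta2 -0.154 to 0.155, Tagln -0.212 to 0.192, Mylk -0.198 to 0.033, Cspg4 -0.159 to 0.00219, Myocd -0.146 to 0.0843. The cause was not tested. With 3 lungs per group, changes of the size of the printed standard errors were not detectable, and Tagln, at 84 to 181 counts per library, carries the largest counting error of the 10 genes.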

Other observations

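Alveolar myofibroblasts and airway smooth muscle share Acta2 with the vessel wall. Of 10 airway smooth muscle and myofibroblast markers, 1 rose and 3 fell in WT mice after LPS, and 1 rose and 4 fell in Adm+/- mice, with 0 called between genotypes or for the difference between responses. Of all tested genes, 17.6% and 25.0% were called after LPS in WT and Adm+/- mice. Between genotypes 0% were called in PBS and 2.05% in LPS, and 0.145% were called for the difference. The 3 highest per exon length, Actg1, Tgfbi and Aspn, were not called in any comparison, nor was Pdgfra, the receptor that marks myofibroblast precursors (0.02 in WT and 0.44 in Adm+/- mice on the log2 scale). Mustn1, a muscle-associated nuclear protein gene, fell in Adm+/- mice (-0.62, SE 0.165, adjusted p = 0.0152) and was at -0.29 (adjusted p = 0.221) in WT mice. Its call was lost without Adm+/- PBS 7 or 8 or Adm+/- LPS 2 or 12 (adjusted p from 0.0523 to 0.0702). Wnt5a, a noncanonical Wnt ligand of the mesenchyme, was named after its values were seen. Its mean fell from 230.6 to 119 CPM in WT (-0.95, SE 0.179, adjusted p = 0.00413) and from 234.5 to 100.3 CPM in Adm+/- mice (-1.23, SE 0.180, adjusted p = 0.000527). Enpp2, the gene of autotaxin, was chosen in the same way and was the marker that rose, by 0.91 and 0.99 (adjusted p = 0.00436 and 0.00140). Wnt5a and Enpp2 were called in all 12 fits that left out 1 library, in both genotypes.

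Of 13 lung fibroblast markers, 4 rose and 2 fell in WT mice and 1 rose and 3 fell in Adm+/- mice, and 0 were called for the difference between responses. The shares called were 46.2% and 30.8%, against 17.6% and 25.0% of all tested genes. The fitted change was below 0 for 9 of the 13 in WT and 7 of the 13 in Adm+/- mice, with medians of -0.41 and -0.43. Their summed level was 15280 to 43880 CPM in WT PBS, highest in WT PBS 5, and 10450 to 14990 CPM in WT LPS, and 14640 to 28000 CPM in Adm+/- PBS, highest in Adm+/- PBS 6, and 10970 to 13150 CPM in Adm+/- LPS. The LPS lungs were below the PBS lungs in each genotype. The genes named here from this list were chosen after their values were seen. Those that rose in WT mice were Dcn (1.71, adjusted p = 0.0127) and Lum (2.24, adjusted p = 0.0221), small proteoglycans of the matrix, Pi16 (1.16, adjusted p = 0.0245) and Inmt (2.67, adjusted p = 0.00981), an amine methyltransferase gene. Inmt also rose in Adm+/- mice (2.08, adjusted p = 0.0206). Wnt2 and Fgf10, ligands that the lung mesenchyme sends to the epithelium, fell in both genotypes. Wnt2 was at -1.58 and -1.55 and Fgf10 at -0.66 and -1.54 on the log2 scale (adjusted p from 0.000239 to 0.0328). With 1 library left out, Wnt2 in both genotypes, Inmt in WT mice and Fgf10 in Adm+/- mice were called in all 12 fits. The WT calls were lost for Dcn without WT LPS 9, for Lum without WT PBS 4 or 5 or WT LPS 9, for Pi16 without WT PBS 3 or 4 or WT LPS 9 or 11, and for Fgf10 without WT PBS 3 or 5 or WT LPS 9 or 10 (adjusted p from 0.0524 to 0.134). The Adm+/- call of Inmt was lost without Adm+/- PBS 6, 7 or 8 or Adm+/- LPS 1 or 12 (adjusted p from 0.0529 to 0.0801). Of 14 cardiac muscle markers 1 rose in WT mice (Sln) and 1 fell in Adm+/- mice (Myh7), calls that held in 5 and 6 of 12 such fits, and the summed level of the 14 markers overlapped among all 4 groups, at 282 to 857 CPM.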
